A study of Rattus norvegicus with 6 samples.

Results

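The 9 genes described here encode enzymes that make or protect the building blocks of DNA and RNA: Rrm1, Rrm2, Tyms, Tk1, Dut, Dctpp1, Umps, Cad and Impdh2. They were chosen by gene symbol, with earlier results of these data known. All 9 of them are among the 18631 genes of the table. RNA sequencing of polyadenylated RNA was carried out on cultured rat vascular smooth muscle, the muscle that contracts blood vessels, with 3 libraries labelled MIAT knockdown and 3 titled Scr, whose genotype is given as wild type and which are called control here. Per the labels, small interfering RNAs and antisense oligonucleotides against the long noncoding RNA MIAT, 50 nM in all, stayed on the cells for 72 h. All 6 libraries were used. The same total and time are recorded for the control libraries, but which oligonucleotides the control cells received is not stated. Nothing in the labels says whether libraries of a group came from separate cultures or animals, and the p-values below reflect how much these samples vary, which can be technical. Miat itself was not analysed here, and groups carry the names of the labels.

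Cells that copy their DNA need a balanced supply of deoxyribonucleotides. Ribonucleotide reductase, built from the large subunit Rrm1 and the small subunit Rrm2, turns ribonucleotides into deoxyribonucleotides, thymidylate synthase (Tyms) makes the thymine nucleotide de novo, and thymidine kinase 1 (Tk1) recovers it from thymidine. Dut breaks down dUTP, which keeps uracil out of DNA and yields the substrate of Tyms, and Dctpp1 removes dCTP and its modified forms. Upstream, Cad carries out the opening steps of pyrimidine synthesis and Umps the closing steps that give UMP, while Impdh2 catalyses the rate-limiting step towards guanine nucleotides. Several of these genes are textbook targets of E2F transcription factors in proliferating cells, and Cad is also a textbook target of Myc.

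The sequence upstream of the start is shown for 3 genes that rose, for Tyms and for Cad. In the knockdown libraries 8 of the 9 genes had a higher mean and Cad a lower one. A link between sequence and direction was not tested. Of the 9 symbols, 7 matched the RefSeq promoter table (build GRCr8). Rrm2 and Umps had no entry. Each line gives the 250 bases before the gene's start, 5′ to 3′ on the gene's strand, at chr1:166235654-166235903, plus strand (Rrm1), chr3:132952180-132952429, plus strand (Dut), chr10:103544778-103545027, minus strand (Tk1), chr9:120776084-120776333, minus strand (Tyms) and chr6:31035037-31035286, minus strand (Cad). Capitals mark matches, on either strand, to an E2F word (TTTCCCGC, TTTCGCGC, TTTGCCGC or TTTGGCGC), the E-box CACGTG, the CCAAT box (CCAAT) or the GC box (GGGCGG).

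Rrm1: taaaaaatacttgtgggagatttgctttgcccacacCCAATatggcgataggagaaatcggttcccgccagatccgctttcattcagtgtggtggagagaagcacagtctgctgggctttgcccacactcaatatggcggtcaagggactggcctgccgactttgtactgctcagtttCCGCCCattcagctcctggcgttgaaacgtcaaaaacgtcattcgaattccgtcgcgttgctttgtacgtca
Dut: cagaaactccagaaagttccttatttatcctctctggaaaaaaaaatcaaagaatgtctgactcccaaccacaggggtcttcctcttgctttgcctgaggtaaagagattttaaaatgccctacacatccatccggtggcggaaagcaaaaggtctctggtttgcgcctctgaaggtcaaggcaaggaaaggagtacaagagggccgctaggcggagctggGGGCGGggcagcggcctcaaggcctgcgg
Tk1: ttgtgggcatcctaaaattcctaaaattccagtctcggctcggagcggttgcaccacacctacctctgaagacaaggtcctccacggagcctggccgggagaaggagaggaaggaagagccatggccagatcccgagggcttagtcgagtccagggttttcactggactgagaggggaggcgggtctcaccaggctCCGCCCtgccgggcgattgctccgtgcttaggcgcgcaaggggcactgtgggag
Tyms: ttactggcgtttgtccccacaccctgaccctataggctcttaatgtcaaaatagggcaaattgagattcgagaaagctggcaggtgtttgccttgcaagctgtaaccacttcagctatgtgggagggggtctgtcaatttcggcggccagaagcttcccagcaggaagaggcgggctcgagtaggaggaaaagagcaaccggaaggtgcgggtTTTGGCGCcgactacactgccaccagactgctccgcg
Cad: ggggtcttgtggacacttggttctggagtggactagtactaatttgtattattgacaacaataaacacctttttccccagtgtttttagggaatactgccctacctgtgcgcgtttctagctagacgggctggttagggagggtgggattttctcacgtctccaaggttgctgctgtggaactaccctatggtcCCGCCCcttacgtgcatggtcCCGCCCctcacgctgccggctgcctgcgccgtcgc

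Tyms was the only 1 of the 7 matched members with an E2F word, TTTGGCGC, 37 to 30 bases before the start. Such a word stood in 1.81% of all 27457 promoters of this length and in 3.41% of the 10335 promoters of tested genes. CACGTG was in 0 of 7 members and in 8.19% of the promoters of tested genes. The GC box was in 5 of 7, Rrm1, Dut, Tk1, Dctpp1 and Cad, against 59.2% of the promoters of tested genes. CCAAT was in Rrm1 and Dctpp1, 2 of 7, against 35.8%. The Cad promoter holds the GC box in 2 places and none of the other words. These matches describe the letters of the windows only, and sequence outside them, such as that after the start, is not covered. Close variants of the words were not counted.

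Total counts ranged from 17793811 to 20121161 per library, and 13423 genes passed the filter on low counts, all 9 members among them. Levels are CPM (counts scaled to library size) after TMM scaling in edgeR, and per-length levels are the authors' FPKM. Same-numbered libraries of the 2 groups deviated together from their group means, with correlations across genes of 0.67, 0.50 and 0.57 for numbers 1, 2 and 3. Each result is therefore given from edgeR's quasi-likelihood test without and with the replicate number as a block, adjusted by Benjamini-Hochberg over all tested genes. A gene is said to have risen or fallen where its adjusted p was below 0.05 with the block. Without the block 0 genes passed in edgeR (2576 at an unadjusted p under 0.05, 699 in DESeq2). With it 21.6% of the tested genes passed, 10.5% upward and 11.1% downward. In bulk RNA, more cells that express a gene and more RNA of it per cell cannot be told apart.

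The cells carried smooth muscle RNA throughout, with the summed level of 6 smooth muscle markers at 5260 to 7651 CPM in knockdown and 5934 to 7622 CPM in control libraries. Myh11 and Lmod1 of these 6 fell. The endothelial marker Cdh5 stayed at or below 0.0561 CPM and the leukocyte marker Ptprc at or below 0.0521 CPM in every library. The whole endothelial list summed to 5.37 to 6.23 CPM in knockdown and 7.63 to 10.3 CPM in control libraries, with Kdr, at up to 7.60 CPM, the 1 of its 5 tested genes that fell. The leukocyte list summed to 9.18 to 13.7 CPM and 7.98 to 21.4 CPM, with Cd68 at up to 10.5 CPM, Csf1r at up to 6.90 CPM and 0 of 3 tested genes that passed. All 5 fibroblast markers were detected, and 4 of them fell (Pdgfra, Dpt, Dcn and Lum), with sums of 1429 to 1734 CPM in knockdown and 2019 to 2175 CPM in control libraries. The part of these shifts in the results on nucleotide enzymes was not tested.

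Of the 9 enzymes, 5 rose with the block, Rrm1, Rrm2, Tk1, Dut and Umps, 0 fell and 4 did not pass, against 10.5% of all tested genes that rose and 21.6% that passed in either direction. The rises were between 1.19-fold and 1.37-fold. The median log2 fold change of the 9 was 0.31 in both fits, against -0.014 without and -0.0090 with the block over all tested genes. Without the block 0 of the 9 passed in edgeR, where 5 had an unadjusted p under 0.05 (19.2% of all tested genes did), and 3 passed in DESeq2, Rrm1, Rrm2 and Dut. With the block the count was 3 without pair 1 (Rrm1, Rrm2 and Umps), 3 without pair 2 (Rrm1, Rrm2 and Dut) and 7 without pair 3, where Tyms and Impdh2 passed as well, and 3 in DESeq2. Calls over the whole table moved with these settings too. They went from 2898 to 1195 without pair 1, 736 without pair 2, 4124 without pair 3 and 1595 in DESeq2 with the block. The calls of Rrm1 and Rrm2 held in 9 of 9 alternatives with the block. The groups did not overlap upward in 6 of 9, against 14.2% of tested genes, and downward in 1, Cad, against 11.8%. The log2 fold change with the block was above 0 for 8 of the 9 and for 6511 of the 13423 tested genes. Within same-numbered pairs 8, 7 and 8 of the 9 were higher in the knockdown library of pairs 1, 2 and 3. Of all tested genes 50.4%, 48.4% and 49.7% were. In 3 of 3 pairs 7 of 9 were higher, against 28.0% of tested genes. Because the 9 were chosen with earlier results known, the shares set beside all tested genes are descriptions.

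**Figure D1:**
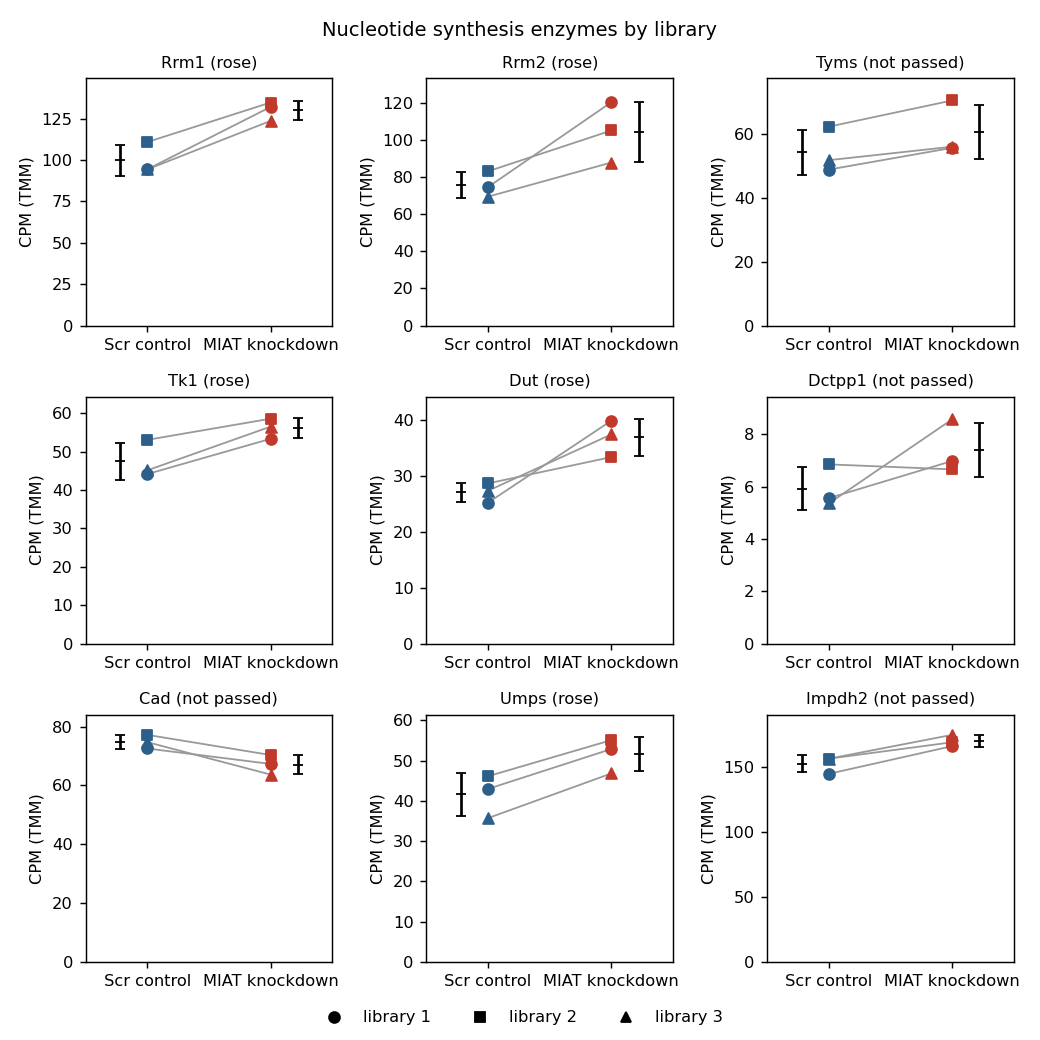
Level of each enzyme gene in CPM after TMM scaling (y axis, from 0) in the 3 control (blue) and 3 MIAT knockdown libraries (red). Grey lines join same-numbered libraries and black bars show the mean ± SD (n = 3). Rrm1, Rrm2, Tk1, Dut and Umps rose with the replicate block, and Cad is the gene whose 3 lines all slope down.

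Both subunit genes of ribonucleotide reductase rose. Rrm1, the large subunit, stood at 132, 135 and 124 CPM in knockdown libraries 1 to 3 and at 94.4, 111 and 94.3 CPM in control libraries 1 to 3. Every knockdown library lay above every control library, and control library 2 came nearest to them. The means were 130.2 ± 5.79 against 99.9 ± 9.53 CPM (SD, n = 3), a 1.31-fold rise with a log2 fold change of 0.39 (SE 0.0597, edgeR adjusted p = 0.00468 with the block and 0.116 without it). Rrm2, the small subunit, whose RNA is known to peak in S phase, stood at 120.3, 105 and 87.8 CPM in knockdown and at 74.6, 83.0 and 69.4 CPM in control libraries. The groups did not overlap, but knockdown library 3 was close to control library 2. Rrm2 rose 1.37-fold (log2 fold change 0.46, SE 0.0784, edgeR adjusted p = 0.00664 with the block and 0.143 without it). Its difference was uneven, with log2 values of 0.69 in pair 1 and 0.34 in pairs 2 and 3. In the RefSeq annotation Rrm2 overlaps Cys1 by 1917 bases, and the strand setting of the counting is not given in the sources used here, so reads in the overlap cannot be assigned to either gene. Cys1 itself had 17 to 31 counts per library.

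The gene of the other small subunit did not pass. Rrm2b, the p53-inducible paralog of Rrm2, was at 21.4, 18.7 and 16.7 CPM in knockdown and 16.8, 19.6 and 16.3 CPM in control libraries. These ranges overlapped, and its log2 fold change of 0.11 had a 95% interval of -0.14 to 0.35 (edgeR adjusted p = 0.516 with the block). Its sign turned without pair 1 (-0.01). Per length, Rrm2 exceeded Rrm2b 7.73-fold to 8.28-fold in knockdown and 6.24-fold to 6.54-fold in control libraries. This FPKM ratio, which does not depend on how libraries are scaled, was above all controls in every knockdown library. The FPKM ratio of Rrm2 to Rrm1 overlapped between the groups, at 0.843, 0.722 and 0.658 in knockdown and 0.732, 0.694 and 0.682 in control libraries.

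Of the thymidine nucleotide genes Tk1 rose and Tyms did not pass. Tk1, the salvage kinase of thymidine, stood at 53.4, 58.6 and 56.5 CPM in knockdown and at 44.2, 53.1 and 45.1 CPM in control libraries. The groups were separated by a narrow margin, between knockdown library 1 and control library 2. Tk1 rose 1.19-fold (log2 fold change 0.25, SE 0.0667, edgeR adjusted p = 0.0322 with the block and 0.225 without it). Leaving out pair 1 ended its call (adjusted p = 0.127 at a log2 fold change of 0.24), as did leaving out pair 2 (0.0969 at 0.30) and DESeq2 with the block (0.160 at 0.24).

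Tyms, thymidylate synthase, was at 55.8, 70.6 and 56.1 CPM in knockdown and at 48.9, 62.4 and 51.9 CPM in control libraries. Number 2 was the highest library in both groups and the groups overlapped. Within pairs Tyms was higher in 3 of 3, by log2 values of 0.19, 0.18 and 0.11. The fitted log2 fold change of 0.16 had a 95% interval of 0.02 to 0.30 with the block and did not pass over all genes (edgeR adjusted p = 0.0946, and 0.552 without the block). Without knockdown library 2 the unblocked value was 0.04, and with the block Tyms passed when pair 3 was left out (0.18, adjusted p = 0.0493), under total count scaling (0.27, 0.0153) and under a gene-length correction (0.21, 0.0376).

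Tk2, the mitochondrial thymidine kinase, was at 15.4, 13.6 and 15.3 CPM in knockdown and 15.3, 13.1 and 12.4 CPM in control libraries, with overlapping groups.

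Of the pair of genes that clean the deoxyribonucleotide pool, Dut rose and Dctpp1 could not be resolved. Dut stood at 39.8, 33.3 and 37.4 CPM in knockdown and at 25.2, 28.6 and 27.3 CPM in control libraries. The lowest knockdown library, number 2, was above the highest control library, also number 2. The means were 36.8 ± 3.28 against 27.0 ± 1.74 CPM (SD, n = 3), a 1.36-fold rise with a log2 fold change of 0.44 (SE 0.0934, edgeR adjusted p = 0.0131 with the block and 0.110 without it). The call ended without pair 1 (0.34, adjusted p = 0.0662).

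Dctpp1, the dCTP pyrophosphatase and the member with the fewest counts, 98 to 165 per library, was at 6.98, 6.65 and 8.57 CPM in knockdown and at 5.56, 6.85 and 5.35 CPM in control libraries. Knockdown library 2 lay below control library 2, so the groups overlapped. Counting error alone amounts to 7.78% to 10.1% at these counts, against 1.98% to 2.45% for Rrm1. The log2 fold change was 0.32 with an interval of -0.07 to 0.72 (edgeR adjusted p = 0.219 with the block). Its pairs gave 0.33, -0.04 and 0.67. The fitted value with the block was 0.14 without pair 3, 0.51 without pair 2 and 0.16 with the length correction.

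**Figure D2:**
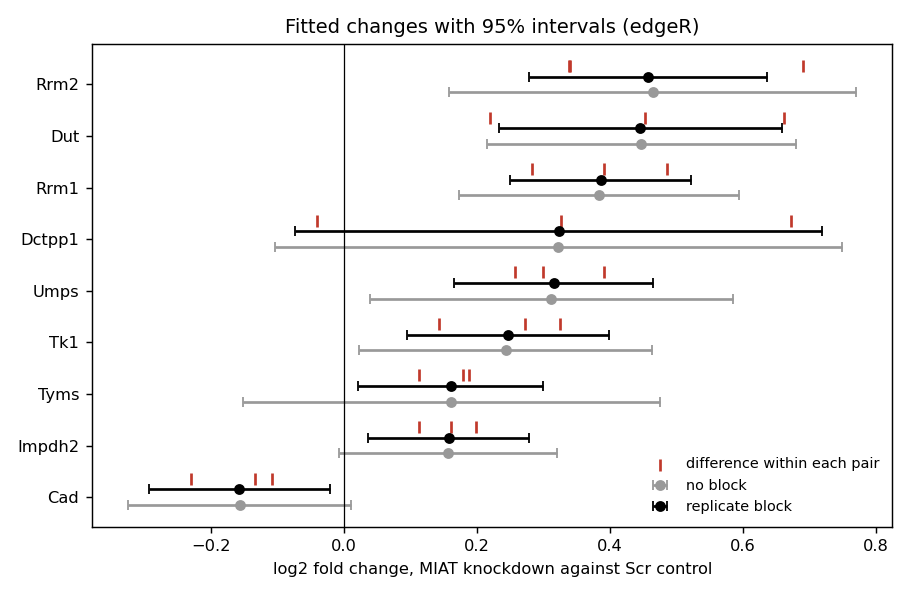
Log2 fold change of each enzyme gene, MIAT knockdown against control (x axis), from edgeR with the replicate block (black) and without it (grey), with bars for the 95% interval. Red ticks are the differences within the 3 same-numbered pairs, which lie on both sides of 0 for Dctpp1 alone and below 0 for Cad in 3 of 3.

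At the end of pyrimidine synthesis Umps rose, whereas Cad at its start did not pass and had a lower mean. Umps, which makes UMP and overlaps a long noncoding RNA gene in the RefSeq annotation, stood at 52.9, 55.1 and 46.8 CPM in knockdown and at 43.0, 46.1 and 35.7 CPM in control libraries. The groups did not overlap, although knockdown library 3 was close to control library 2. Umps rose 1.24-fold (log2 fold change 0.31, SE 0.0657, edgeR adjusted p = 0.0129 with the block and 0.216 without it). Its pairs were even, with log2 differences of 0.30, 0.26 and 0.39. The call ended without pair 2 (0.35, adjusted p = 0.0789) and with the block in DESeq2 (0.30, 0.0581). Without the block and without control library 3 the value was 0.21.

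Cad, the multifunctional enzyme that opens the pathway, was at 67.3, 70.4 and 63.7 CPM in knockdown and at 72.6, 77.2 and 74.7 CPM in control libraries. Every knockdown library was below every control library and the difference had the same sign in 3 of 3 pairs, with log2 values of -0.11, -0.13 and -0.23. The fitted log2 fold change of -0.16 had a 95% interval of -0.29 to -0.02 with the block and did not pass over all genes (edgeR adjusted p = 0.0935, and 0.289 without the block). Its size depended on the scaling, since with total counts it was -0.05 in both fits, and with the length correction -0.06. It was below 0 in 25 of 25 settings. The upper bound of the interval was 0.985-fold with the block and 1.01-fold without it.

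Ratios within a library, which do not depend on library scaling, show the distance between Cad and the genes that rose. A gene-length effect that differs between libraries would remain in these ratios. With the length correction and block the log2 fold changes of Rrm1, Umps, Dut and Cad were 0.37, 0.24, 0.39 and -0.06. With the block alone they were 0.39, 0.31, 0.44 and -0.16, so the distance was smaller after the correction. The FPKM ratio of Rrm1 to Cad was 4.74, 4.63 and 4.69 in knockdown and 3.14, 3.47 and 3.05 in control libraries. That of Umps to Cad was 3.56, 3.54 and 3.33 against 2.68, 2.70 and 2.16, and that of Dut to Cad 2.18, 1.75 and 2.16 against 1.28, 1.37 and 1.35. For these 3 ratios every knockdown library was above every control library. They were chosen with the values known. An exact two-sided permutation test gave p = 0.1 for each, the smallest that 3 against 3 libraries allow, and 0.2 after Benjamini-Hochberg adjustment over 10 ratios, so none passed. The ratio of Rrm2 to Rrm2b had the same p-values.

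Impdh2, the member with the highest level, stood at 166, 169 and 175 CPM in knockdown and at 145, 157 and 157 CPM in control libraries. The groups did not overlap and the difference was even across pairs, with log2 values of 0.20, 0.11 and 0.16. With a log2 fold change of 0.16 and a 95% interval of 0.04 to 0.28 it did not pass over all genes (edgeR adjusted p = 0.0666 with the block and 0.281 without it). It passed with total count scaling and block (0.26, adjusted p = 0.0108) and without pair 3 (0.15, 0.0488), and was 0.09 with the length correction. Impdh1, its isozyme, was at 91.4, 95.6 and 97.5 CPM in knockdown against 105 ± 0.348 CPM in control libraries (SD, n = 3). Its log2 fold change was -0.15 (edgeR adjusted p = 0.0838 with the block), and -0.04 with total count scaling and block. The FPKM ratio of Impdh2 to Impdh1 was 3.05, 2.97 and 3.01 in knockdown and 2.32, 2.50 and 2.49 in control libraries, with no overlap. Its exact permutation p was 0.1, the smallest possible, and 0.2 after adjustment.

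**Figure D3:**
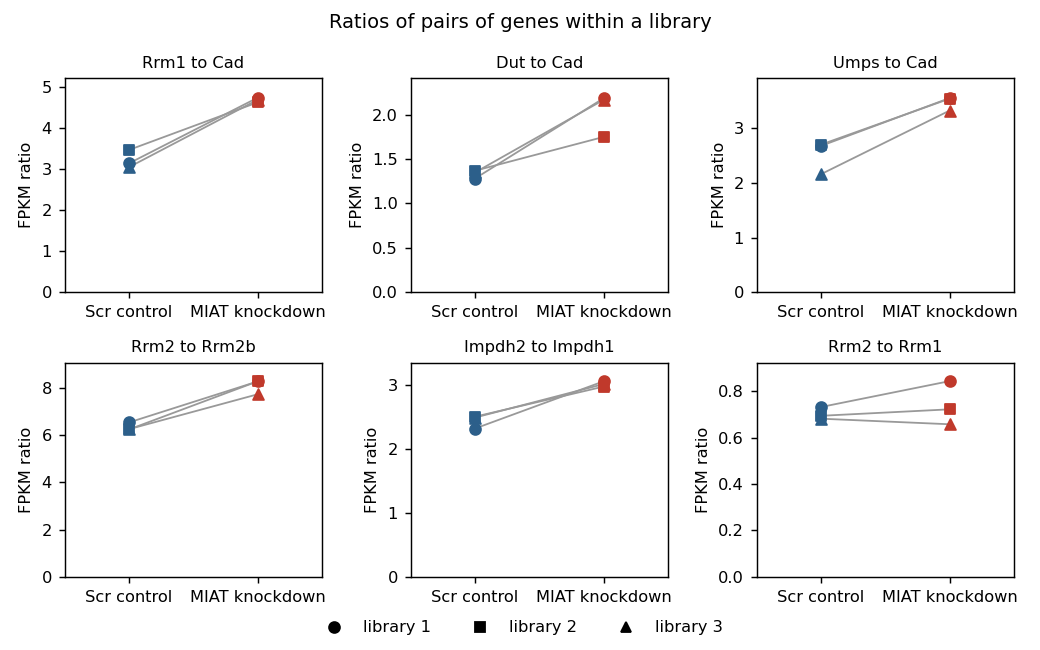
FPKM ratio of 2 genes within each library (y axis, from 0) in control (blue) and MIAT knockdown (red), with same-numbered libraries joined by grey lines. The ratios of Rrm1, Dut and Umps to Cad, of Rrm2 to Rrm2b and of Impdh2 to Impdh1 do not overlap between the groups, and that of Rrm2 to Rrm1 does.

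Per length, the order of the 9 genes spans from Impdh2 at a mean of 91.0 FPKM over the 6 libraries, through Rrm1 at 38.4, Umps at 29.1, Rrm2 at 27.9, Dut at 16.3, Tk1 at 14.0, Tyms at 11.5 and Dctpp1 at 10.3, to Cad at 9.74 FPKM. Impdh2 was clear of the rest, its lowest library at 80.8 FPKM and the highest library of Rrm1 at 46.4 FPKM. Every other neighbour in this order overlapped in its range over libraries. Within a library, Rrm1 exceeded Umps, Rrm2 exceeded Dut, Dut exceeded Tk1 and Tk1 exceeded Tyms in 6 of 6 libraries, whereas Dctpp1 exceeded Cad in 3 of 6. These levels rest on the gene lengths in the authors' FPKM, which run from 647 bases for Dctpp1 to 7275 for Cad.

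The enzymes also shared a pattern within the controls. Control library 2 was the highest of the 3 controls for 9 of 9 members, by a small margin for Impdh2, and for 26.6% of all tested genes. Among knockdown libraries number 2 was the highest for 5 of 9, against 28.7% of tested genes. Across the 6 libraries the 28 pairs of members without Cad had Pearson correlations of log2 CPM from 0.36 to 0.93, with a median of 0.78, and the 8 pairs with Cad from -0.80 to 0.01. After removal of the group means the medians were 0.34 without Cad and 0.57 with Cad. Single pairs then ran from -0.40 to 0.87 without Cad and from -0.28 to 0.86 with Cad, so some were opposite in sign. All 6 points share library scaling and group, and the correlations are descriptions. The 5 genes of at least 5 CPM whose log2 CPM was most like the mean of the 9 were Racgap1 (Pearson r of 0.996 over 6 libraries), Kifc1 (0.996), Cdca3 (0.993), Sapcd2 (0.992) and Snap23 (0.990), out of 10469 genes ranked.

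Beyond the 9, the wider network was described from 8 lists ordered by role, 88 genes in all the 9 enzymes included. The symbols Adss1 and Adss2 were not analysed here and Cda did not pass the filter. Of the 76 other genes tested, 9 rose, 5 fell and 62 did not pass, with a median log2 fold change of 0.08. The share that rose, 11.8%, was near the 10.5% of all tested genes, and the share that fell was 6.58% against 11.1%. The same 10.5% and 11.1% are the background of the counts per list below. Single lists hold 4 to 15 other tested genes and were not tested as sets, so their counts are descriptions.

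Of the 4 other genes of deoxyribonucleotide production, Dctd rose and 3 did not pass. Dctd, dCMP deaminase, which supplies dUMP to Tyms, stood at 17.2, 14.2 and 18.8 CPM in knockdown and 9.47, 10.4 and 16.0 CPM in control libraries, overlapping groups with a 1.42-fold rise (log2 fold change 0.50, edgeR adjusted p = 0.0293 with the block). In the rest of pyrimidine synthesis 0 of 5 genes passed, with 4 of 5 below 0. Ctps1, CTP synthase and the most abundant of them, was at 143 ± 2.69 against 146 ± 12.2 CPM. In the RefSeq annotation it overlaps Scmh1 by 28770 bases and Slfnl1 by 4472 bases.

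Purine synthesis had 2 risers among 11 other tested genes, Ppat and Pfas, and 0 that fell. Ppat, which catalyses the committed opening step of purine synthesis, stood at 53.9, 50.6 and 53.2 CPM in knockdown and at 38.3, 37.8 and 35.8 CPM in control libraries. The groups were far apart relative to their spread, and the 1.41-fold rise (edgeR adjusted p = 0.00325 with the block, 0.104 without it) compares with 1.37-fold for Rrm2, the largest among the 9 enzymes, a difference between genes that was not tested. Ppat overlaps Paics, another gene of the pathway, which was at 104 ± 6.12 against 91.7 ± 12.6 CPM (SD, n = 3) and did not pass (edgeR adjusted p = 0.0595 with the block). Pfas, a later enzyme of the same pathway, rose 1.21-fold, from 35.8 ± 1.73 to 43.2 ± 3.23 CPM. In one-carbon folate supply 3 of 15 rose and 1 fell. Psph, the last enzyme of serine synthesis, rose 1.42-fold and the folate carrier Slc19a1 1.31-fold, while Aldh1l1, which oxidises one-carbon units of folate in the cytosol, fell from 14.9 ± 2.42 to 9.40 ± 1.76 CPM. The third riser, Fpgs, falls outside the naming rule and had a log2 fold change of 0.29, a call that ended without any 1 of the 3 pairs (0.37, 0.27 and 0.22 without pairs 1, 2 and 3), in DESeq2 with the block and with DESeq2 size factors and the block.

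Among 12 other salvage genes the uridine-cytidine kinase gene Uck2 rose 1.17-fold, and 11 did not pass. Of 13 nucleotide kinases and cleaning enzymes 2 rose, the nucleotide kinase gene Ak6 (1.34-fold) and the nucleoside diphosphate kinase gene Nme2 (1.14-fold). Nme2 can share reads with its close paralog Nme1, and Ak6 overlaps Taf9 in the RefSeq annotation, so both values are uncertain. Of 12 breakdown genes 3 fell and 0 rose, against 11.1% of all tested genes that fell and 10.5% that rose. Gda, guanine deaminase, was at 1153, 1326 and 1135 CPM in knockdown and 1646, 1780.1 and 1473 CPM in control libraries, a fall of 0.44 on the log2 scale (edgeR adjusted p = 0.00292 with the block). Xdh, xanthine dehydrogenase, which makes uric acid, fell from 151 ± 49.5 to 102 ± 29.2 CPM, and the AMP deaminase gene Ampd3, at a low level, from 5.77 ± 3.02 to 3.67 ± 1.48 CPM. The groups overlapped for Xdh and Ampd3, which were lower in 3 of 3 pairs. In the RefSeq annotation Gda overlaps a long noncoding RNA gene by 69564 bases and a small nucleolar RNA gene by 129 bases. Ampd3 overlaps another long noncoding RNA gene by 1702 bases. The strand setting of the counting is not given. Of 4 nucleoside transporters Slc29a3, the lysosomal one, fell from 64.2 ± 4.70 to 52.2 ± 5.99 CPM.

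**Figure D4:**
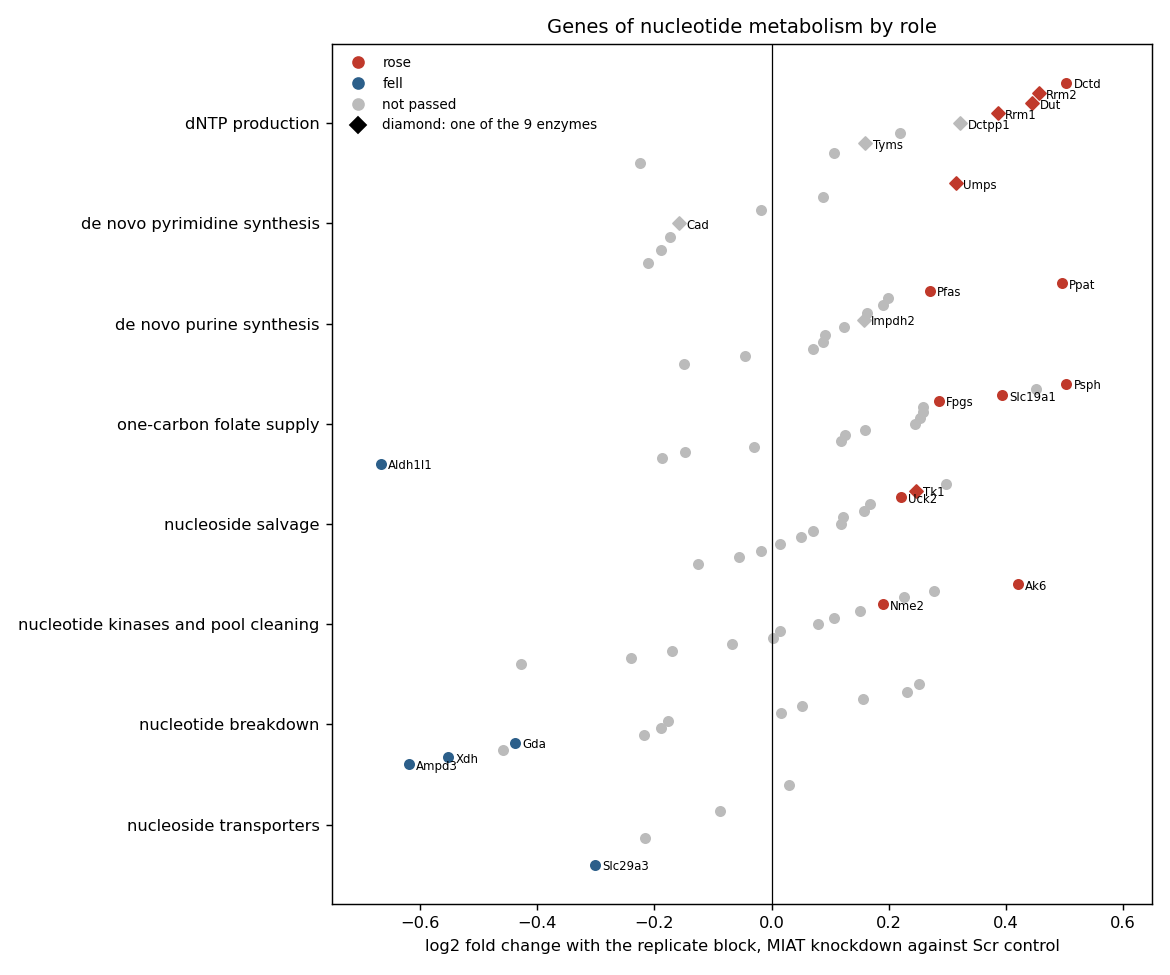
Log2 fold change with the replicate block, MIAT knockdown against control (x axis), of each tested gene of 8 lists (rows). Red points rose, blue points fell, grey points did not pass, and diamonds are the 9 enzymes. The 5 genes that fell are Aldh1l1, Ampd3, Xdh, Gda and Slc29a3.

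Of the 13 non-member calls that the naming rule takes from the lists, 3 held in 9 of 9 alternatives with the block, Ppat, Xdh and Gda. Without pair 1 the calls of Dctd (log2 fold change 0.34), Pfas (0.22), Aldh1l1 (-0.47), Slc19a1 (0.38), Uck2 (0.21), Ak6 (0.41), Nme2 (0.18), Ampd3 (-0.50) and Slc29a3 (-0.29) ended. Without pair 2 those of Dctd (0.53), Pfas (0.27), Psph (0.54), Slc19a1 (0.43), Uck2 (0.27), Ak6 (0.39), Nme2 (0.24), Ampd3 (-0.72) and Slc29a3 (-0.28) ended. With DESeq2 and the block 7 of the 13 ended. Total count scaling with the block ended those of Ampd3 (-0.51) and Slc29a3 (-0.19), the length correction with the block those of Nme2 (0.05), Slc19a1 (0.37), Ak6 (0.30) and Ampd3 (-0.55), and DESeq2 size factors with the block that of Nme2 (0.18). Single libraries also moved unblocked values by over 1.5 times. Ampd3, at -0.65, was at -0.14 without control library 1, -1.01 without knockdown library 1 and -0.42 without knockdown library 3. Without control library 3 the value of Xdh went from -0.56 to -0.26 and that of Dctd from 0.48 to 0.75. Of the transcription factor genes named above, Myc rose from 51.1 ± 3.64 to 113 ± 17.3 CPM and E2f1, of the E2F family, from 19.5 ± 3.91 to 26.2 ± 0.808 CPM (SD, n = 3). Several of the enzymes are known targets of E2F factors, and Cad also of Myc. A link of either factor to the changes was not tested. The call of Myc held in 9 of 9 alternatives with the block. That of E2f1 ended without pair 2 (log2 fold change 0.48), without pair 3 (0.25) and in DESeq2 with the block (0.43, adjusted p = 0.0697), and its unblocked value of 0.42 was 0.27 without control library 3.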

How the data were processed

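The authors deposited a table of counts per gene symbol and a table of FPKM, in which the count is scaled by gene length and library total. All 99047 deposited FPKM values above 0 could be rebuilt from the count, 1 length per gene and the library total to a relative tolerance of 1e-06, so both tables hold the same measurements. The sources used here do not name an aligner, counting program, strand setting or genome build. Per the labels' protocols, 500.0 ng of total RNA entered each library.

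Genes were filtered with filterByExpr and scaled with TMM in edgeR 4.0.16 (R 4.3.3). The fits were also run on simulated data, with less variation than the unblocked fit found here and with true pairs for the block. Those runs cannot tell whether the pairing taken here is right. The design fixed was 3 knockdown against 3 control libraries with no covariate, and the replicate number as a block was set beside it. Same-numbered libraries correlated by 0.50 to 0.67 after removal of group means, so the numbers were taken to pair them. The others gave -0.56 to -0.05. Deviations from a group mean cancel within the group, so positive values for same numbers make the others negative on average. The labels do not state this pairing, which was taken from the same data as the calls. The biological coefficient of variation was 19.7% without and 8.09% with the block, on 4 and 2 residual degrees of freedom. No library was a copy of another (chi-square per degree of freedom of 20.6 to 83.6 within groups). Standard errors were derived from the quasi-likelihood F statistic. Alternatives used DESeq2 1.42.0, limma 3.58.1 (voom, and log2 FPKM with pseudocounts of 1 and 0.1), other scalings and filters, a loess correction for gene length (span 0.5) and fewer libraries. The block in limma-voom was chosen after seeing the data.

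The members and lists were chosen with earlier results of these data known. Named are the 9 members, Rrm2b, Impdh1, Tk2, Myc, E2f1, per list the 3 other genes, or fewer, that passed with the block and had the largest log2 fold change in size (or the most abundant where none passed), and the 5 genes most like the members' mean. The results of 2 further genes of the lists are not reported here.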

Additional observations from a re-analysis of the deposited data

How the results depend on the processing

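The log2 fold change kept its sign in 25 of 25 settings for each of the 9 enzymes. The calls depended on the replicate block and on the tool. Of all tested genes, 0 passed in edgeR without the block, and also with other scalings or filters, in limma-voom and in limma on log2 FPKM. DESeq2 without the block called 699 genes, 3 of the 9 enzymes and 5 of the 85 tested pathway genes. With the replicate block these counts were 2898, 5 and 19 in edgeR, 1595, 3 and 9 in DESeq2 and 3051, 5 and 19 in limma-voom. In edgeR with the block they were 3641, 7 and 36 with total count scaling, 2961, 5 and 17 with DESeq2 size factors, 3128, 5 and 21 with no low-count filter, and 2616, 6 and 17 with the length correction. With the block they were 1195, 3 and 7 without pair 1, 736, 3 and 7 without pair 2, and 4124, 7 and 31 without pair 3, fits with fewer residual degrees of freedom. Without the block and without any 1 library they were 0, 0 and 0. The median log2 fold change of the 9 enzymes, 0.31, was 0.42 with total count scaling in either fit and on log2(FPKM + 0.1), 0.20 without pair 3 with the block, and from 0.21 (without control library 3) to 0.38 without 1 library. Total count scaling moved the median of all genes from -0.014 to 0.094 and the calls with the block to 2822 higher and 819 lower, from 1412 and 1486, so directions are relative to TMM. Apart from these settings, the cause of the changes was not tested. Dctpp1 had the fewest counts of the 9 enzymes. Its counting error was 7.78% to 10.1%, beside a coefficient of variation of 13.8% in knockdown and 13.7% in control libraries.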
